A study of Rattus norvegicus with 241 samples.

Results

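Genes of the VEGF and angiopoietin systems were followed through every bulk and single-cell table of a rat mammary gland study: VEGFA, VEGFC, KDR, FLT1, ANGPT1, ANGPT2, TEK and EPAS1. They were chosen by symbol, matched without regard to case, and all 8 members were found in the tables, in which up to 15824 genes were tested in 1 comparison. VEGFA and VEGFC are secreted growth factors of blood and lymphatic vessels. VEGFA signals through the receptor tyrosine kinase KDR (VEGFR2), while FLT1 (VEGFR1) binds the same ligand with high affinity and acts largely as a trap for it. ANGPT1 activates the endothelial receptor TEK (TIE2) and quiets vessels, ANGPT2 is its context-dependent antagonist, and EPAS1 encodes a hypoxia-inducible transcription factor of vessels and their supporting cells.

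Female rats of the ACI and Sprague-Dawley (SD) strains received the TGFβ receptor inhibitor LY2157299 (TGFBRi, 75 mg/kg by oral gavage) or vehicle, to learn how mammary cells and later tumors changed. Bulk RNA sequencing (202 samples) covered CD24+CD29high basal cells, CD24+CD29low luminal cells and CD45+ leukocytes. Both epithelial gates left out CD31+ and CD45+ cells, and CD31 is an endothelial surface marker. Single-cell RNA sequencing (39 tables from 24 rats) covered sorted epithelium and unsorted SD glands.

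Peripubertal virgin ACI rats began 10 days of dosing at 35 days of age and were examined 0, 7 and 14 days after the last dose, with 3 rats per arm, day and sort. Peripubertal virgin SD rats began at 24 days and were examined at day 0, with 4 rats per arm in bulk. Adult ACI rats began at 18 to 24 weeks, virgin or parous, and were examined at day 0 with 4 rats per arm, except the CD45+ sorts of parous vehicle rats (n = 2) and virgin TGFBRi rats (n = 3). In the NMU experiment, SD rats began at 21 days, received the carcinogen N-nitroso-N-methylurea after dosing and were examined at day 87. There the glands came from tumor-bearing vehicle rats and from tumor-bearing or tumor-free TGFBRi rats (n = 3 each), so that treatment and tumor status cannot be told apart in the tumor-free comparison, and tumors were sorted into EPCAM+ and CD45+ cells (n = 3 per arm). In the E2 experiment, ACI rats began 21 days of dosing at 38 days of age with or without an estradiol implant, and luminal and CD45+ cells were sorted after long follow-up: 4 vehicle and 3 TGFBRi rats without estradiol, 4 tumor-bearing vehicle rats with it, and 4 tumor-free and 2 tumor-bearing TGFBRi rats with it.

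Bulk samples held 4194912 to 52314784 reads on genes, with a median of 20100223. The 9 whole-gland libraries (3 vehicle and 6 TGFBRi rats) held 103524 cells, sorted SD epithelium (3 and 6 rats) 39766 cells and sorted ACI epithelium (3 and 3 rats) 16762 cells. Pairs of whole-gland libraries shared a median of 188 cell barcodes, and 12494 cells (12.1%) carried a barcode that also occurred in another library. Each whole-gland call of a member was therefore also fitted without these cells, and only the KDR call in one basal cluster was lost. Clusters without enough markers were given no name.

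The core promoters of the receptors FLT1 and KDR are shown because these 2 genes, both known from endothelium, differed in the epithelium in each single-cell data set below. The 250 bases before the transcription start come from RefSeq on the rat build GRCr8, which had promoter entries for 5 of the 8 members (ANGPT1, ANGPT2 and TEK had none). Capitals mark the core motif of ETS transcription factors, GGAA or its reverse complement TTCC.
FLT1: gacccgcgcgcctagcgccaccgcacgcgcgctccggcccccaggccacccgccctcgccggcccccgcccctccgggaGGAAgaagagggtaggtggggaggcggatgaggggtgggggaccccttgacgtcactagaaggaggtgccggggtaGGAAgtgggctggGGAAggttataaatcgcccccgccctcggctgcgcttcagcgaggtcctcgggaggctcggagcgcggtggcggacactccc
KDR: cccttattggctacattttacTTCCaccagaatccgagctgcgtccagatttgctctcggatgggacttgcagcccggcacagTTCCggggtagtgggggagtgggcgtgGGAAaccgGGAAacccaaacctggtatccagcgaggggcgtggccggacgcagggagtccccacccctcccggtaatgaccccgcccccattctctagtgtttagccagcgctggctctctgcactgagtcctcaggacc
The FLT1 window is chr12:12333180-12333429 and the KDR window chr14:32571813-32572062, both on the plus strand. FLT1 held 3 ETS cores, and 55.5% of the 33469 rat promoters of this length held at least 3. KDR held 4, and 34.67% of promoters held at least 4. The core of the hypoxia response element (ACGTG or GCGTG on either strand) occurred 1 time in the FLT1 window and 2 times in the KDR window, against 36.7% of promoters with at least 1 and 16.02% with at least 2, and it did not occur in the windows of VEGFA, VEGFC or EPAS1. These letter counts describe the windows only.

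Cells of the whole gland were clustered without the members or their pathway genes, and clusters were called by marker genes as, for example, fibroblast-like. Levels are given as CPM, the unique molecules (UMIs) of a gene per 1000000 UMIs of the class, as mean ± SD over rats (n = 9 unless stated). Among named classes, the highest level of the ligand VEGFA depended on the arm. In the 3 vehicle rats it was in the basal-like cluster led by NRG1 (197 ± 17.8, against 144 ± 10.8 in fibroblast-like cells, without overlap), and in the 6 TGFBRi rats in fibroblast-like cells (169 ± 31.6, against 85.8 ± 30.3 in the NRG1 cluster of the 4 rats with enough cells). The basal-like cluster led by IL17B held 128 ± 15.8 over all rats and luminal progenitor-like cells 95.4 ± 28.3. A cluster of 431 cells led by CCL19 and CXCL13, which stayed unnamed, held more VEGFA than any named class in every rat (558 ± 98.2, lowest 421). Blood endothelial-like cells, its main targets, held 13.4 ± 4.07, close to B-like cells at 12.7 ± 5.64, and T-like cells were lowest at 5.04 ± 3.52.

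VEGFC, the lymphatic growth factor, was also highest in the CCL19 cluster (81.1 ± 42.1) and, among named classes, in fibroblast-like cells (44.5 ± 25.5). Blood endothelial-like cells (20.8 ± 4.70) and lymphatic endothelial-like cells (15.8 ± 9.50) came next with overlapping ranges, and pericyte-like cells held 10.2 ± 3.23. Weighted by the cells recovered, fibroblast-like cells gave 62.2% ± 10.2 of all VEGFC UMIs of a gland and 30.5% ± 12.5 of its VEGFA UMIs. These shares pool arms of unlike make-up: the NRG1 cluster, a source of VEGFA, was 2.68% to 11.7% of the cells of vehicle rats and 0.105% to 0.135% in TGFBRi rats. Epithelial VEGFC was confined to low values: 5.48 ± 2.23 in mature luminal-like cells and at most 1.32 ± 2.71 in the basal-like and progenitor-like classes.

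The angiopoietins had different sources from each other. ANGPT1 was highest in neutrophil-like cells (39.4 ± 10.7, range 24.4 to 51.7), followed at less than the spread from each other by pericyte-like (13.9 ± 7.41), luminal progenitor-like (13.4 ± 8.19) and fibroblast-like cells (11.7 ± 5.52). Since neutrophil-like cells were few, they gave only 5.44% of its UMIs, against 33.6% ± 16.1 from fibroblast-like and 33.4% ± 15.6 from luminal progenitor-like cells. Blood and lymphatic endothelial-like cells held 0.583 ± 0.482 and 0.464 ± 0.925 CPM of ANGPT1.

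ANGPT2 was instead a vascular gene, at 171 ± 75.3 in lymphatic endothelial-like, 168 ± 48.3 in blood endothelial-like and 117 ± 38.2 in pericyte-like cells, 3 classes whose ranges over all rats overlapped. Their order differed by arm, with lymphatic endothelial-like cells highest in vehicle rats (249.6 ± 50.8, against 192 ± 83.3 and 72.4 ± 3.55) and lowest of the 3 after TGFBRi (131 ± 49.1, against 157 ± 21.8 and 139 ± 23.3). Only the pericyte-like values of vehicle rats lay outside the ranges of both other classes in the same arm. Among named classes, fibroblast-like cells followed at 9.66 ± 6.84, below every value of those 3 classes. Luminal progenitor-like, mature luminal-like and T-like cells held less than 1 CPM of ANGPT2.

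Among the receptors, FLT1 was highest in blood endothelial-like cells at 778 ± 120. An unnamed cluster of 1641 cells with endothelial and pericyte genes held FLT1 at 718 ± 177 and KDR at 332 ± 82.6. The next named class for FLT1 was epithelial: luminal progenitor-like cells held 80.1 ± 21.7, with no overlap with blood endothelial-like cells (58.8 to 124 against 506 to 930). Lymphatic endothelial-like cells held only 13.3 ± 7.61 of FLT1. KDR had the opposite order outside blood vessels, with 373 ± 78.2 in blood endothelial-like cells, an overlapping 352 ± 111 in lymphatic endothelial-like cells and 3.04 ± 1.85 in luminal progenitor-like cells. An unnamed cluster of 2966 cells led by SLPI, LYZ2 and CFP also held KDR (208 ± 91.2) and held FLT1 at 10.6 ± 8.27.

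TEK was highest in blood endothelial-like cells (124 ± 32.7), with no overlap with lymphatic endothelial-like cells (29.1 ± 15.3). Unnamed clusters held TEK as well, at 72.7 ± 18.6 in the cells with endothelial and pericyte genes and 31.7 ± 11.7 in 865 cells led by CCL17. Among named classes, fibroblast-like cells came next at 18.8 ± 4.32 and gave 21.8% of all TEK UMIs. Within them, TEK separated 2 clusters, at 63.6 ± 16.5 in the 2707 cells led by PI16 and 4.22 ± 1.55 in the 7779 cells led by APOD. The other members went the other way there, with VEGFC at 24.3 ± 14.4 and 51 ± 28.6 and ANGPT1 at 4.81 ± 2.44 and 14.0 ± 6.86 in the same order.

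Among named classes, EPAS1 was highest in blood endothelial-like (306 ± 46.2) and pericyte-like cells (281 ± 66.5), whose ranges overlapped. The unnamed cluster with endothelial and pericyte genes held more, 405 ± 93.8. Schwann-like cells held 91.2 ± 41.7, lymphatic endothelial-like cells 52.8 ± 19.5 and luminal progenitor-like cells 49.7 ± 18.6. In a finer clustering, the vascular smooth muscle cluster (1223 cells) held the most EPAS1 of all clusters examined, 450.3 ± 85.6, against 239.6 ± 61.2 in the pericyte cluster led by RGS5.

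The same finer clustering divided blood endothelial-like cells into a capillary-arterial cluster (4979 cells) and a venular one (3756 cells). KDR was 537 ± 125 and 199.9 ± 36.1 in these, EPAS1 385 ± 74.3 and 239 ± 34.9. ANGPT2 (127 ± 38.8 and 208 ± 52.5) and VEGFC (11.3 ± 4.69 and 33.4 ± 8.89) were higher on the venular side, while TEK (132 ± 25.4 and 114 ± 43.1) differed by less than its SD. A further cluster of 229 cells led by GLYCAM1 stayed unnamed and held ANGPT2 at 279.5 ± 193 and TEK at 142 ± 41.9 (n = 7). These clusters come from the same cells, so their levels are a description.

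**Figure D1:**
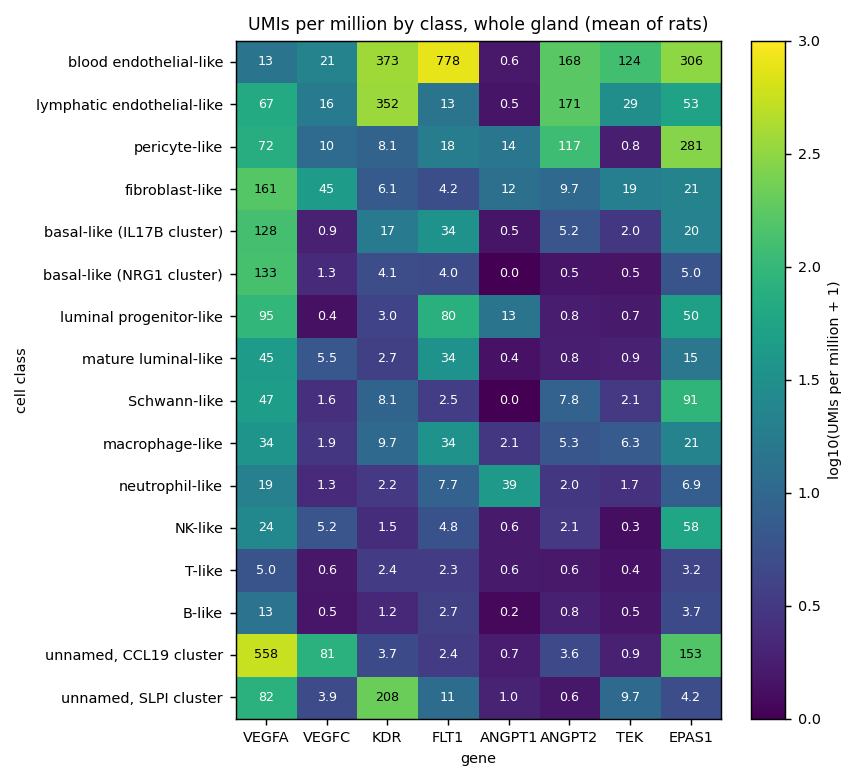
Mean level of each member (columns) in each whole-gland class (rows) in CPM, printed in each cell and colored on a log10(level + 1) scale. FLT1 and TEK peak in blood endothelial-like cells, KDR and ANGPT2 are close to equal in blood and lymphatic endothelial-like cells, and VEGFA peaks in the unnamed CCL19 cluster (558). Levels are means over both arms, which differ, for example, for VEGFA in the NRG1 cluster and ANGPT1 in fibroblast-like cells. For ANGPT2 the order of blood and lymphatic endothelial-like cells differs between the arms.

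Sorted epithelium was measured in single cells as well, for which the authors had removed cells with a PTPRC (CD45) read and kept cells with at least 2 keratin reads. VEGFA was highest in basal-like cells in both strains, at 239 ± 65.9 in ACI (n = 6) and 181 ± 85.8 in SD rats (n = 9), against 134 ± 17.4 and 100.9 ± 43.2 in luminal progenitor-like cells. FLT1 marked luminal progenitor-like cells at 82.4 ± 4.03 in ACI and 81.7 ± 33.2 in SD, and was 1.64 ± 0.877 and 1.44 ± 0.638 in basal-like cells. KDR went the other way and was low, with 4.56 ± 2.05 and 3.67 ± 1.01 in basal-like cells and 0 UMIs in mature luminal-like cells of either strain.

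ANGPT1 was a luminal progenitor gene in both strains, 55.6 ± 2.17 in ACI (51.8 to 58.3) and 14.0 ± 5.42 in SD (6.78 to 21.6), with no overlap between the strains. Strain, age at dosing and experiment cannot be told apart in that difference. EPAS1 followed the same class, at 136 ± 24.7 in ACI and 60.6 ± 24.4 in SD. ANGPT2 and TEK were at or below 0.245 ± 0.252 in every named sorted class. A cluster of 376 SD cells led by CRIP1, SPARCL1 and DES stayed unnamed and held EPAS1 at 379.8 ± 60 and ANGPT2 at 78.8 ± 34.2 (n = 7), and since only 1 vehicle rat had enough of these cells it was not tested.

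The 3 genes whose pattern over the 14 named classes was most like each member were found by Pearson's r of log2 levels among 9454 genes, as a description, since classes share libraries and depth. For KDR they were EMCN (0.981), DLL4 (0.976) and CDH5 (0.971), 3 endothelial genes. For TEK they were CYP4B1 (0.962), BMP4 (0.961) and CLEC14A (0.957), and for ANGPT2 MEOX2 (0.972), DYSF (0.945) and CAVIN2 (0.941). FLT1 (RBP7, TSPAN8 and AQP1, 0.886 to 0.899) and EPAS1 (TMEM109, HEY1 and PREX2, 0.843 to 0.877) had looser matches, as did VEGFC (GRB10, IGF2 and HMCN1, 0.860 to 0.902). For ANGPT1 they were SLPI (0.896), HSD11B1 (0.883) and G0S2 (0.806), and for VEGFA NF1X (0.956), NECTIN1 (0.905) and LTBP3 (0.904).

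In bulk, basal and luminal cells of the same vehicle rats were compared at day 0 with limma on log2(normalized read count + 1), and a call needs p, after Benjamini-Hochberg correction over all genes, to be 0.05 or below. Normalized counts are not scaled to gene length and are compared only between samples of 1 gene. In these mixtures, fewer cells of a type and less RNA per cell cannot be told apart. In ACI rats 4 of 8 members passed, where 20.5% of all genes did, and in SD rats 6 of 8, where 50.1% did.

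KDR was 327, 282 and 870 in the 3 ACI basal sorts and 25.9, 18.2 and 48.1 in the luminal sorts of the same rats. In SD rats it was 89.7, 108.4, 147 and 194 in basal and 22.8, 9.52, 8.33 and 26.3 in luminal cells. Every basal value was above every luminal one within each strain, a log2 difference of 3.88 ± 0.812 (SE, limma adjusted p = 0.000616) in ACI and 3.03 ± 0.652 (adjusted p = 0.000881) in SD. TEK was 289.7, 34.2 and 399.7 in ACI basal sorts against 20.4, 0 and 1.66 in luminal ones (5.38 ± 1.21, limma adjusted p = 0.00136). The TEK values of SD rats did not overlap either, 41.4 to 92.8 on the basal and 1.14 to 13.5 on the luminal side (3.51 ± 0.723, limma adjusted p = 0.000607).

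ANGPT2 was 278, 134 and 454 in ACI basal and 23.5, 6.56 and 23.2 in ACI luminal cells (3.96 ± 0.765, limma adjusted p = 0.000243). In SD rats it was 182 to 384 and 10.7 to 60.5 (3.39 ± 0.962, limma adjusted p = 0.00683), again without overlap. Among named classes of the unsorted gland, KDR, TEK and ANGPT2 had their highest mean level in an endothelial class, as did FLT1 and EPAS1. Basal values of FLT1 and EPAS1 were not higher with limma in either strain. Luminal progenitor-like cells of the unsorted gland also held FLT1 and EPAS1. The sum of 8 endothelial markers, none of them at 0, was also higher in basal sorts, at 497 ± 216 against 36.8 ± 13 CPM (reads per 1000000) in ACI and 329 ± 69.2 against 93.4 ± 48.5 in SD rats. In sorted single cells with keratin reads, ANGPT2 and TEK were below 1 CPM in basal-like cells, while mean KDR was above 1 CPM there in both strains. The part of other cells in the bulk differences of KDR, TEK and ANGPT2 was not tested further.

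FLT1, the member with the highest level in blood endothelial-like cells, went the other way in SD rats, with 386, 381, 489 and 359 in basal and 584, 1288, 812 and 1056 in luminal cells. All luminal values were higher, a basal minus luminal difference of -1.16 ± 0.327 (limma adjusted p = 0.00658). In ACI rats FLT1 in basal cells spanned 107.6 to 1303 around luminal values of 724 to 953 and did not pass (-0.89 ± 0.643, adjusted p = 0.41).

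VEGFA ranged from 4080 to 5187 in SD basal sorts and from 1098 to 3013 in luminal ones, without overlap (1.19 ± 0.292, limma adjusted p = 0.00249). In ACI rats the values did not overlap either, at 8174 to 11824 against 5471 to 5803, and the difference did not pass (0.78 ± 0.733, adjusted p = 0.553, and 0.0761 with rat as a block). VEGFC did not pass in ACI rats (-1.50 ± 0.865, adjusted p = 0.267). In SD rats it was higher in the basal sort of each of the 4 rats and did not pass without a block (2.68 ± 1.16, limma adjusted p = 0.0617), but with rat as a block, the pairing of both sorts by rat, it did (adjusted p = 0.0442). EPAS1 did not pass in either (-0.36 ± 1.45 and 0.57 ± 0.790, adjusted p = 0.926 and 0.567).

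In these bulk sorts, ANGPT1 had opposite directions in the strains. In ACI rats the basal values were 32.6, 38.3 and 78.6 and the luminal ones 496, 305 and 652 (-3.29 ± 0.583, limma adjusted p = 8.45e-05). In SD rats it was 68.1, 51.2, 37.4 and 83.4 in basal and 24.0, 26.2, 22.2 and 15.5 in luminal cells (1.37 ± 0.450, limma adjusted p = 0.0165). Each of the 3 ACI rats was lower in basal cells and each of the 4 SD rats higher, and the difference between strains itself was not tested because the strains were normalized in separate tables. Fibroblast markers, a class that held ANGPT1 in the unsorted gland, summed to 43256 ± 7818 CPM in SD basal and 993 ± 579 in SD luminal sorts, and to 5724 ± 2839 and 1147 ± 396 in ACI rats, and their part was not tested. Without basal replicate 4 the SD call was lost. Sorted single cells did not show this reversal: in both strains, luminal progenitor-like cells held more ANGPT1 than basal-like cells.

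**Figure D2:**
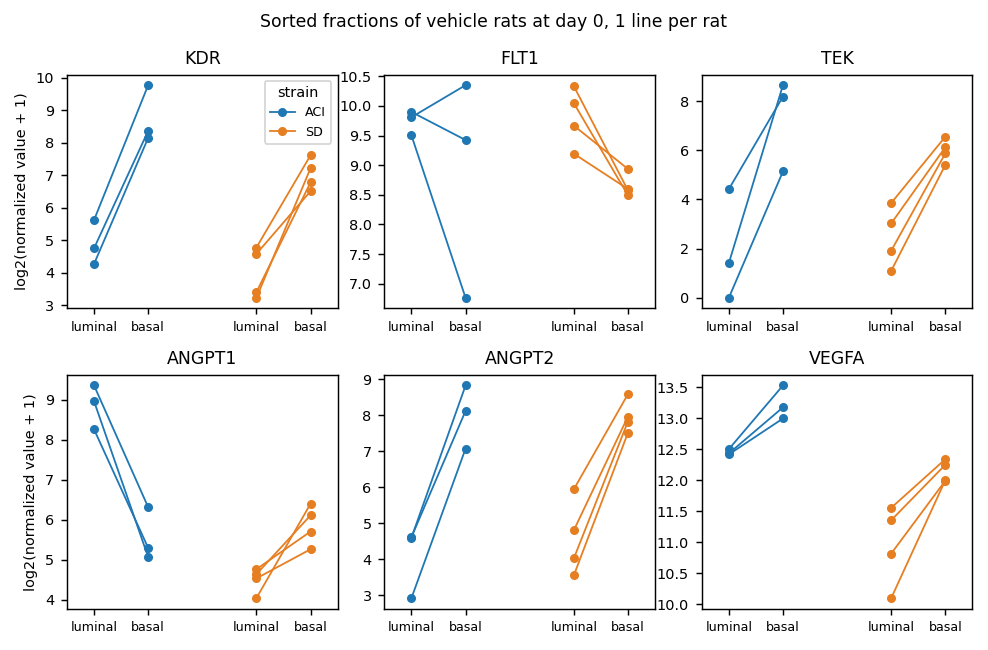
Log2(normalized read count + 1) of 6 members in luminal and basal cells of vehicle rats at day 0, with 1 line per rat (blue ACI, orange SD). KDR, TEK and ANGPT2 rise from luminal to basal in all 7 rats, whereas ANGPT1 falls in the 3 ACI rats and rises in the 4 SD rats.

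Treatment was tested within each whole-gland class on UMIs summed per rat, with edgeR's quasi-likelihood test and an adjusted p of 0.1 or less over all genes of the class. Folds are after TMM scaling, which centers the bulk of genes, so they can be smaller or larger than the ratio of the levels printed. Leaving TMM out moved the median of all genes by -0.106 to 0.258 in whole-gland classes and by -0.381 to -0.215 in sorted ones. Over 16 classes, 25 of 111 member tests passed (22.5%), against 16.6% of all tests.

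The angiopoietin receptor TEK rose in both endothelial classes. In blood endothelial-like cells, where 32.1% of genes passed, TEK was 75.8, 82.9 and 88.5 CPM in vehicle rats and 132 at the lowest, 142 at the median and 161 at the highest in the 6 TGFBRi rats. The arms did not overlap (log2 fold change 0.60, edgeR adjusted p = 0.0023), and the fold was 0.56 to 0.81 over the 15 alternative settings. In lymphatic endothelial-like cells (16.1% of genes passed) TEK was 19.4, 11.9 and 15.1 against 19.5, 34.7 and 57.4 (1.05, adjusted p = 0.0394). It was the only member called in the blood endothelium. There KDR (294 ± 86.9 in vehicle and 413 ± 33.5 in TGFBRi rats, adjusted p = 0.2), FLT1 (700.4 ± 169 and 816 ± 79.7, adjusted p = 0.982), ANGPT2 (192 ± 83.3 and 157 ± 21.8, adjusted p = 0.178) and EPAS1 (254 ± 25.8 and 332 ± 27.2, adjusted p = 0.286) did not pass with edgeR.

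In lymphatic endothelial-like cells, KDR rose with TEK, from 325, 162 and 235 in vehicle rats to 283, 418 and 498 (lowest, median and highest, log2 fold change 0.65, edgeR adjusted p = 0.035). The arms overlapped in 1 TGFBRi rat. ANGPT2 fell there, from 248, 301 and 199.7 to 73.3, 126 and 212 (-0.99, edgeR adjusted p = 0.00788), and also overlapped in 1 rat. The calls of TEK and KDR in this class were lost without vehicle rat 2, whereas that of ANGPT2 was kept in all 15 alternative settings, between -1.2 and -0.86.

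Pericyte-like cells showed the reverse for ANGPT2 and a rise in 2 further members (27.1% of genes passed in this class). ANGPT2 was 69.4, 71.7 and 76.3 in vehicle rats and 109.8, 139 and 168 in TGFBRi rats, without overlap (0.76, edgeR adjusted p = 0.00269). EPAS1 was 172, 216 and 217 against 269, 321 and 359, also without overlap (0.49, adjusted p = 0.0213), and its call was lost without vehicle rat 1. ANGPT1 was 11.1, 3.13 and 6.12 against 11.7, 15.4 and 27.4 (1.21, adjusted p = 0.0215), and its call was lost without vehicle rat 2. The 6 endothelial markers in the table, none at 0, summed to 499.9 ± 68.1 and 711 ± 66.6 in pericyte-like cells and to 3625 ± 367 and 3794 ± 160 in blood endothelial-like cells. TEK in pericyte-like cells was 1.12 ± 1.31 and 0.627 ± 0.633 and KDR 8.27 ± 2.06 and 7.94 ± 3.45, and the part of endothelial RNA in the rise of ANGPT2 was not tested further. In the finer clustering, this class took in the RGS5 pericyte cluster (4020 cells) and the vascular smooth muscle cluster (1223 cells). EPAS1 was 239.6 ± 61.2 and 450.3 ± 85.6 in these, and ANGPT2 119 ± 38.6 and 96.7 ± 53.9. The share of each cluster by arm was not tested. Folds of the class cannot tell a change of mix from a change within cells.

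In fibroblast-like cells (29% of genes passed), ANGPT1 was 4.89, 4.17 and 6.09 in vehicle rats and 10.2, 15.7 and 18.7 in TGFBRi rats. The arms did not overlap (1.33, edgeR adjusted p = 0.00131), and the fold was 1.17 to 1.59 in all alternatives. VEGFC was 88.2, 86.8 and 19.3 against 24.9, 34.1 and 45.2 (-1.05, adjusted p = 0.0526). Vehicle rat 3 lay below all TGFBRi rats, and the VEGFC call was lost without vehicle rat 1, without vehicle rat 2 and without TMM. VEGFA did not pass (144 ± 10.8 and 169 ± 31.6, adjusted p = 0.934).

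Both VEGF receptors were lower in fibroblast-like cells, at levels far under those of the endothelium. KDR was 15.5, 8.25 and 9.74 against 1.14, 3.67 and 5.61 (-1.82, edgeR adjusted p = 0.00394), without overlap. FLT1 was 7.21, 5.79 and 5.24 against 1.04, 4.10 and 4.67 (-1.02, adjusted p = 0.0717), and its call was lost without vehicle rat 1 or 2, at a Leiden resolution of 1.2 and without TMM. Endothelial markers in the same cells, 6 of 8 in the table and none at 0, summed to 90.3 ± 14.4 and 70.4 ± 22.8.

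**Figure D3:**
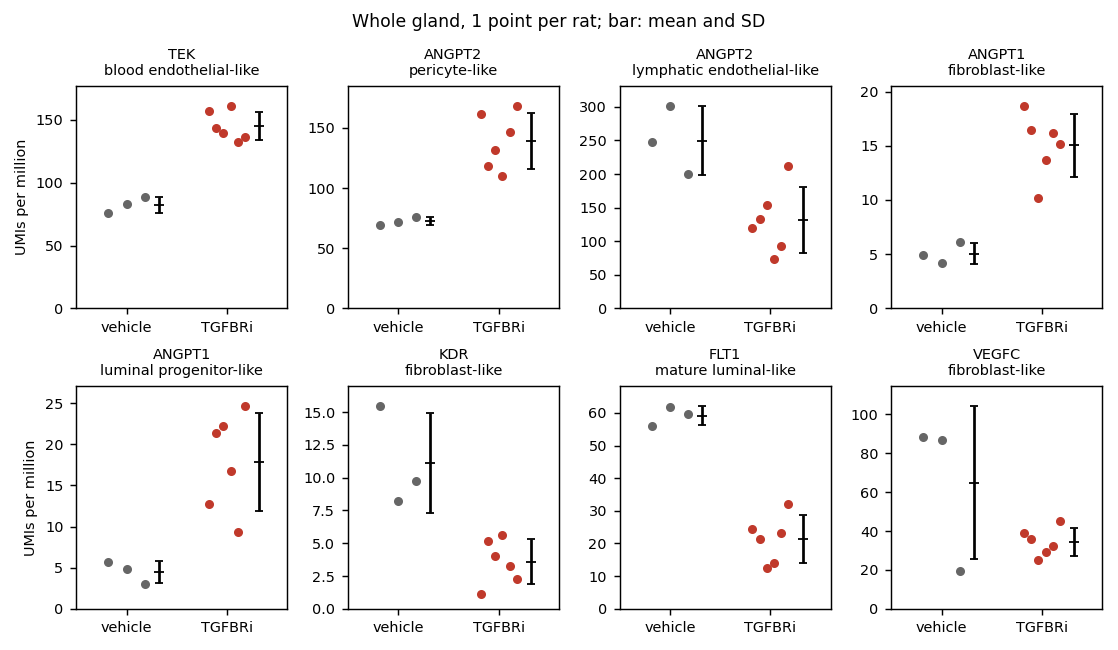
Levels in CPM of 5 members in 8 whole-gland settings, with 1 point per rat (3 vehicle, 6 TGFBRi) and the mean and SD of each arm. TEK in blood endothelial-like, ANGPT2 in pericyte-like and ANGPT1 in fibroblast-like and luminal progenitor-like cells are higher in all 6 TGFBRi rats, ANGPT2 in lymphatic endothelial-like cells is lower in 5 of 6, and VEGFC varies most among vehicle rats.

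In luminal progenitor-like cells of the unsorted gland (28.1% of genes passed), ANGPT1 was 5.67, 4.78 and 3.05 in vehicle and 9.28, 19.1 and 24.6 in TGFBRi rats. No values overlapped (1.76, edgeR adjusted p = 0.00754), and the fold was 1.67 to 2.08 in all alternatives. EPAS1 rose from 35.3, 22.2 and 38.4 to 46.5, 54.1 and 88.9 (0.74, adjusted p = 0.0537), without overlap. The call was lost without vehicle rat 2, where the fold was 0.61. FLT1 fell from 73.3, 104.1 and 124 to 58.8, 68.8 and 82.8 (-0.64, adjusted p = 0.0275), with 1 vehicle rat inside the TGFBRi range. That call was lost without vehicle rat 2 or 3, where the folds of FLT1 were -0.53 and -0.44.

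Mature luminal-like cells (28.0% of genes passed) had a larger fall of FLT1, from 55.9, 61.7 and 59.7 to 12.5, 22.3 and 32.3 (-1.55, edgeR adjusted p = 0.000936). The arms did not overlap and the fold was -1.71 to -1.43 in all alternatives. Markers of luminal progenitors, a class with more FLT1, summed to 5816 ± 1235.5 in vehicle and 3839 ± 784 in TGFBRi rats within these cells, with 1 of 6 markers at 0, and endothelial markers to 37.7 ± 6.95 and 19.2 ± 8.81. Their part was not tested. VEGFA rose there from 36.9, 31.1 and 29.3 to 40.1, 50.3 and 66.7 (0.58, adjusted p = 0.0315), without overlap, a call lost without vehicle rat 3, where the fold was 0.50.

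The same 3 members were measured in sorted luminal progenitor-like cells of this strain and age. There the arms, pooled over rats, were spread unlike over clusters: 1 held 0.468% of vehicle and 37.9% of TGFBRi cells, another 0.201% and 15.8%, and a further one 48.6% and 13.6%. The largest share of any 1 rat, taken for each cluster on its own and not the same rat throughout, was 59.7%, 95.7% and 35.6%. The effects of single rats and of treatment therefore cannot be told apart in this split. In these SD rats (28.5% of genes passed), EPAS1 was 85.3, 98.8 and 86.4 in vehicle and 29.6, 46.3 and 59.5 in TGFBRi rats (-0.62, edgeR adjusted p = 0.091). That call was lost in 7 of 14 alternatives, among them without any 1 of the 3 vehicle rats. ANGPT1 was 15.3, 16.9 and 15.3 against 6.78, 10.03 and 21.6 (0.04, adjusted p = 0.942) and FLT1 106.96, 150.3 and 86.3 against 50.9, 57.1 and 101.55 (-0.42, adjusted p = 0.272). Differences between the 2 data sets were tested only after these values were seen, on log2 levels without TMM, and after TMM the folds lay closer together. The effect on EPAS1 was 0.856 in the unsorted gland and -1.0 in sorted cells. Their difference of 1.86 had p = 0.000142 in an exact permutation test over rats, the smallest it can give (adjusted p = 0.000567 over 4 such tests). That adjustment does not cover the choice of these tests from the values seen. For ANGPT1 the effects were 1.74 and -0.379, a difference of 2.12 (exact permutation p = 0.0034, adjusted p = 0.0068). The unsorted and sorted libraries also differed in chemistry, sort and filter, which cannot be told apart here.

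In sorted ACI luminal progenitor-like cells (28.1% of genes passed), ANGPT1 was 55.5, 51.8 and 56.8 in vehicle and 55.6, 58.3 and 55.7 in TGFBRi rats, and FLT1 85.5, 76.4 and 78.4 against 83.2, 86 and 84.9. Both overlapped in level, and both were called higher after TMM scaling (0.40 and 0.44, edgeR adjusted p = 0.0188 and 0.00957) but not without it (0.04 and 0.08). EPAS1 was 146, 158 and 168 against 109.5, 117 and 117 and did not pass after scaling (-0.10, adjusted p = 0.555).

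**Figure D4:**
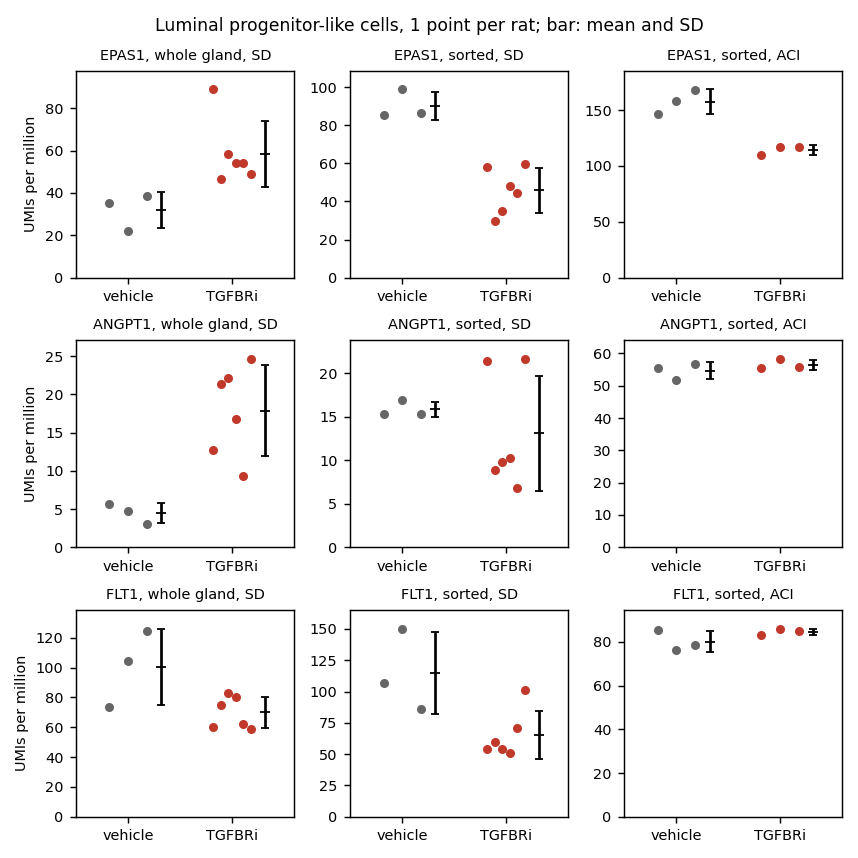
Levels in CPM of EPAS1, ANGPT1 and FLT1 in luminal progenitor-like cells of unsorted SD, sorted SD and sorted ACI glands, with 1 point per rat and the mean and SD of each arm. EPAS1 is higher in all TGFBRi rats of the unsorted gland and lower in all TGFBRi rats of both sorted data sets, and ANGPT1 is higher in all TGFBRi rats of the unsorted gland, with overlapping arms in both sorted data sets.

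Basal cells showed a treatment-dependent split of clusters in the unsorted gland: the NRG1 cluster held 3585 vehicle and 75 TGFBRi cells, and the IL17B cluster 661 and 5210. Comparisons within either therefore set different cells against each other. With both clusters summed as 1 class, a setting chosen after the data were seen, VEGFA was 188 ± 25.4 in vehicle and 125 ± 19.3 in TGFBRi rats (-0.59, edgeR adjusted p = 0.0148) and FLT1 15.0 ± 2.11 and 9.75 ± 2.10 (-0.63, adjusted p = 0.0244). Endothelial markers in these cells summed to 82.7 ± 10.9 and 64.7 ± 17.4, and their part in FLT1 was not tested. EPAS1 was 8.61 ± 1.88 and 12.4 ± 3.09 (0.57, adjusted p = 0.0887), and 6414 of 14427 genes passed.

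Within the NRG1 cluster (20.9% of genes passed), VEGFA was 212, 201 and 177 against 96.3, 119, 79.9 and 47.4 in the 4 TGFBRi rats with enough cells (-1.48, edgeR adjusted p = 4.8e-06). Within the IL17B cluster (8.87% of genes passed), FLT1 (-2.95), ANGPT2 (-3.75), KDR (-1.76), EPAS1 (-1.39) and TEK (-2.24) were all called lower, with edgeR adjusted p between 0.00364 and 0.0487. All 5 calls were lost at a Leiden resolution of 1.2, those of TEK, EPAS1 and KDR also without doublets, that of KDR without shared barcodes, those of TEK, KDR and ANGPT2 without vehicle rat 1 and that of TEK without vehicle rat 2. The folds ranged from -2.54 to -0.1 for TEK and from -3.36 to -0.63 for FLT1. Endothelial markers there summed to 336 ± 221 in vehicle and 65.2 ± 17.7 in TGFBRi rats. With the clusters summed, the log2 fold change was -1.36 for ANGPT2 (adjusted p = 0.109), -0.66 for TEK (adjusted p = 0.278) and 0.40 for KDR (adjusted p = 0.456), none of which passed with edgeR.

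Sorted ACI basal-like cells were also split by treatment, since 1 cluster held 3.94% of vehicle and 91.3% of TGFBRi cells, so that their arms are largely different clusters. A cluster of 1959 cells with IL17B and KRT15 among its leading genes stayed unnamed and outside the basal-like class. In this class (35.1% of genes passed), ANGPT1 was 0.652, 0.390 and 1.48 in vehicle and 8.90, 6.30 and 7.83 in TGFBRi rats. No values overlapped, and the log2 fold change of 3.56 (edgeR adjusted p = 4.6e-05) was the largest rise of any member in the single-cell tests that passed. KDR was 4.05, 1.95 and 2.97 against 6.74, 7.15 and 4.53, without overlap (1.21, adjusted p = 0.00529), while endothelial markers summed to 98.4 ± 27.3 and 63.2 ± 3.92. Both calls held in all 11 alternatives. VEGFA was 240.2, 218 and 131 against 281, 234 and 328 (0.74, adjusted p = 0.0759), and that call was lost in 6 of 11.

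In sorted SD basal-like cells, 1 cluster held 1.21% of vehicle and 54.2% of TGFBRi cells and another 14.9% and 0.203%, pooled over rats. A TGFBRi rat gave 55.6% of the cells of the first of these clusters and a vehicle rat 61.3% of the second. A cluster of 3465 cells with ACTA2 and PCP4 among its leading genes, 98.2% of them from 1 rat, stayed unnamed and outside the basal-like class. In this class (34.5% of genes passed), ANGPT1 was at most 0.774 and 0.251 in the 2 arms and KDR 3.96 ± 1.40 and 3.52 ± 0.885 (adjusted p = 0.611), and neither passed with edgeR. FLT1 there was 0.465, 1.2 and 1.33 against 0.617, 1.95 and 2.19, overlapping (1.14, adjusted p = 0.0787), a call lost in 7 of 14 alternatives. VEGFA was 270.1, 201 and 309 against 80.6, 125 and 267 (-0.53, adjusted p = 0.188). In mature luminal-like cells, VEGFC was 2.31, 5.69 and 2.98 against 1.28, 1.87 and 1.24 in ACI rats (-1.12, edgeR adjusted p = 0.0771, with 25.7% of genes passing), without overlap. That call was lost in 5 of 11 alternatives, with DESeq2, without vehicle rat 2 and without each TGFBRi rat in turn, with folds from -1.41 to -0.55, and 1 of the 2 clusters of this class held 37.4% of vehicle and 69.1% of TGFBRi cells. No member passed in SD rats, where 31.6% of genes did and 1 cluster held 4.42% of vehicle and 58.1% of TGFBRi cells.

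Other whole-gland classes held few calls. EPAS1 rose in Schwann-like cells (9.3% of genes passed) from 60.6, 44.6 and 55.6 to 72.3, 101.4 and 181 (0.94, edgeR adjusted p = 0.0192) and in the CCL19 cluster (2.4% passed) from 97, 57.2 and 97.1 to 125, 190.4 and 242 (1.06, adjusted p = 0.0778). Neither overlapped, the first was lost without vehicle rat 2 and the second in 7 of 15 alternatives. VEGFA fell in B-like cells (17.3% passed) from 18.3, 18.4 and 21.7 to 6.74, 8.51 and 14.6 (-1.08, adjusted p = 0.0123). Markers of other cells had lower means there after TGFBRi as well, at 549 ± 615 and 217 ± 73.1 for fibroblasts, 34.6 ± 27.0 and 11.8 ± 3.67 for basal cells, 14.7 ± 9.45 and 5.31 ± 1.796 for pericytes and 17.6 ± 5.56 and 9.58 ± 3.79 for endothelium, and their part was not tested. No member passed in neutrophil-like, macrophage-like, NK-like or T-like cells or in the SLPI cluster, in which 5.03%, 1.53%, 4.63%, 6.33% and 9.02% of genes did, so the level of ANGPT1 in neutrophil-like cells (39.8 ± 13.4 and 39.1 ± 10.6) and of KDR in the SLPI cluster (209 ± 147 and 208 ± 68.4) did not differ beyond the spread of rats.

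Of all cells, blood endothelial-like cells were 11% ± 4.70 in vehicle and 7.11% ± 2.79 in TGFBRi rats (exact permutation p = 0.190) and pericyte-like cells 7.65% ± 5.12 and 3.62% ± 1.36 (exact permutation p = 0.119). Lymphatic endothelial-like cells, which hold KDR and ANGPT2, were 0.940% ± 0.258 and 0.611% ± 0.130 (exact permutation p = 0.0476, 2-sided), a difference that kept a p under 0.05 when TGFBRi replicate 6 was left out and lost it when any other single rat was.

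Across the bulk experiments, TGFBRi was compared with vehicle in 32 settings of sort, age, day and tumor status, and 2 of the member tests passed with limma at an adjusted p of 0.05 or less. Both were of EPAS1 and in opposite directions. They were 1 of 72 member tests in young ACI rats and 1 of 48 in NMU glands, where 0.802% and 0.417% of all tests passed. In adult ACI rats 0 of 72 passed (0.953% of all tests) and in the E2 experiment 0 of 64 (0.228%). In young SD rats 0 of 24 passed and in NMU tumors 0 of 15 (0.0% of all tests in each). KDR, FLT1, TEK, ANGPT1, ANGPT2, VEGFA and VEGFC passed in none, with smallest adjusted p of 0.39, 0.0622, 0.0526, 0.0805, 0.136, 0.0889 and 0.158. At an unadjusted p under 0.05 they counted 1, 5, 1, 4, 1, 5 and 3 settings. Of the tests of all genes, 10.7% were at that level in young ACI, 3.18% in young SD and 7.94% in adult ACI rats. The share was 11.2% in NMU glands, 4.37% in NMU tumors and 7.41% in the E2 experiment. The adult and E2 counts of tests and shares include the parity and estradiol contrasts. Few genes of any kind passed in most of these settings. In young ACI rats the shares of genes that passed were 3.34% in basal cells at day 0, 0.00639% at day 7 and 0.0% at day 14, and 0.0% in luminal and CD45+ cells at both later days. In adult rats they were at most 0.0281% outside virgin basal cells (0.00744% in parous basal, 0.0281% in parous luminal and 0.022% in virgin CD45+ cells), and in NMU glands 1.31% in basal cells and 0.015% in CD45+ cells of tumor-bearing rats. Whether the TGFBRi effect on a member changed between day 0 and day 7 or 14 was tested in young ACI rats as well. With limma, 0 of 48 tests passed and 5 were at an unadjusted p under 0.05, against 9.97% of all tests. Of all genes, 0.00639% passed that test for basal and 0.00659% for luminal cells at day 14, and 0.0135% and 0.19% for CD45+ cells at day 7 and day 14.

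EPAS1 fell in CD45+ cells of young ACI rats at day 0, where 2.85% of genes passed. It was 570.02, 1041 and 1783 in vehicle and 195, 321 and 376 in TGFBRi rats, without overlap (-1.83 ± 0.405, limma adjusted p = 0.027). The call was lost when only these 2 groups were fitted and without vehicle replicate 2, TGFBRi replicate 1 or TGFBRi replicate 2. Fibroblast markers in the same samples summed to 23835 ± 10097 and 3822 ± 3201 CPM, endothelial markers to 318 ± 128 and 184 ± 34.9 and pericyte markers to 68.4 ± 15.7 and 14.1 ± 0.974, with 1 fibroblast and 1 pericyte marker at 0 after TGFBRi. Since EPAS1 was high in endothelial and pericyte classes of the whole gland, these values stand beside the fall, and their part was not tested. FLT1 (542, 265 and 811 against 58, 54.2 and 384, adjusted p = 0.0905) and ANGPT2 (141, 107.5 and 430.4 against 86.2, 5.61 and 88.3, adjusted p = 0.136) did not pass with limma there.

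EPAS1 rose in luminal cells of NMU-treated glands when tumor-free TGFBRi rats were set against tumor-bearing vehicle rats, where 0.948% of genes passed. It was 100.1, 125 and 545 in vehicle and 1045, 1763 and 1209 in TGFBRi rats, without overlap (2.77 ± 0.596, limma adjusted p = 0.0403). In tumor-bearing TGFBRi rats it was 1136, 593 and 2299, also all above vehicle, and did not pass (2.60 ± 0.596, adjusted p = 0.0642, with 0.212% of genes passing). The 2 lowest vehicle values came from libraries with 6952044 and 14808084 reads on genes, against 21445893 in the third and 20003972 to 21173594 in tumor-free TGFBRi rats, and the part of depth was not tested. The call was lost with edgeR on the reads and without any single sample other than vehicle replicate 3. Endothelial markers summed to 225 ± 146 in vehicle and 469 ± 228 in tumor-free TGFBRi rats, and fibroblast markers to 406 ± 113 and 1834 ± 1206. VEGFA in the same samples was 1265, 833 and 1789 against 3966, 2736 and 3839.7 (1.49 ± 0.430, adjusted p = 0.0889), which did not overlap and did not pass with limma.

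TEK in luminal cells of young ACI rats at day 0 came nearest to a call of the rest: 20.4, 0 and 1.66 in vehicle and 45.5, 46.8 and 54.3 in TGFBRi rats (3.69 ± 0.858, limma adjusted p = 0.0526, where 1.01% of genes passed). The values did not overlap, and endothelial markers summed to 36.8 ± 13 and 43.5 ± 16.3. These TGFBRi libraries held 10192039, 8922897 and 18568520 reads on genes, against 18895823 to 21160386 in vehicle rats. They had 15060, 15143 and 12976 genes above 0, against 12096 to 13296, and the part of depth was not tested. In young SD rats no member and no gene passed with limma in basal, luminal or CD45+ cells (0 of 24 member tests, 0.0% of genes), and 0 members were at an unadjusted p under 0.05. KDR in SD basal cells, for example, was 89.7, 108.4, 147 and 194 in vehicle and 253, 31.6, 132 and 129 in TGFBRi rats.

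Adult virgin ACI rats had 1 vehicle rat apart in all 3 sorts. In its basal cells KDR was 1617 against 81.7 to 264 in the other 3 vehicle rats, FLT1 5028 against 234 to 601 and TEK 813 against 0 to 117. Endothelial markers in that sample summed to 1164 against 543 to 664 CPM and luminal progenitor markers to 6539.7 against 1799 to 2034. No member passed with limma in the comparison that holds it (8.73% of genes passed), where FLT1 was 519, 140.4, 13 and 60.8 in TGFBRi rats (-2.99 ± 0.962, adjusted p = 0.0622) and ANGPT1 was 0 in 3 of 4 of them (-4.31 ± 1.49, adjusted p = 0.0805).

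In NMU tumors, ANGPT2 was abundant in EPCAM+ cells, at 1797, 2103 and 2010 in vehicle and 1808, 2297 and 829.55 in TGFBRi rats. VEGFA there was 10262, 4018 and 3874 against 4245, 5211 and 1223. The arms overlapped for both, and neither passed with limma. VEGFA in tumor CD45+ cells was 2328, 800 and 707 against 323, 617 and 169.6, lower in all 3 TGFBRi rats, and did not pass (-1.76 ± 0.592, adjusted p = 0.641, with 0 of 15 member tests and 0.0% of all genes called in tumors). In the E2 experiment 0 of 64 member tests passed with limma, against 0.228% of all tests. There 10 were at an unadjusted p under 0.05, against 7.41% of all tests. The share of genes that passed for TGFBRi was 0.0147% in luminal cells without estradiol and with it in tumor-free rats, 0.00736% in luminal and 0.0223% in CD45+ cells of tumor-bearing rats, and for estradiol in vehicle rats 1.48% in luminal and 0.282% in CD45+ cells. With estradiol, ANGPT1 in luminal cells of vehicle rats had a log2 difference of 1.66 ± 0.523 (adjusted p = 0.125), VEGFC one of 3.35 ± 1.36 (adjusted p = 0.25) and ANGPT2 one of -4.01 ± 1.83 (adjusted p = 0.321), none of which passed with limma.

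**Figure D5:**
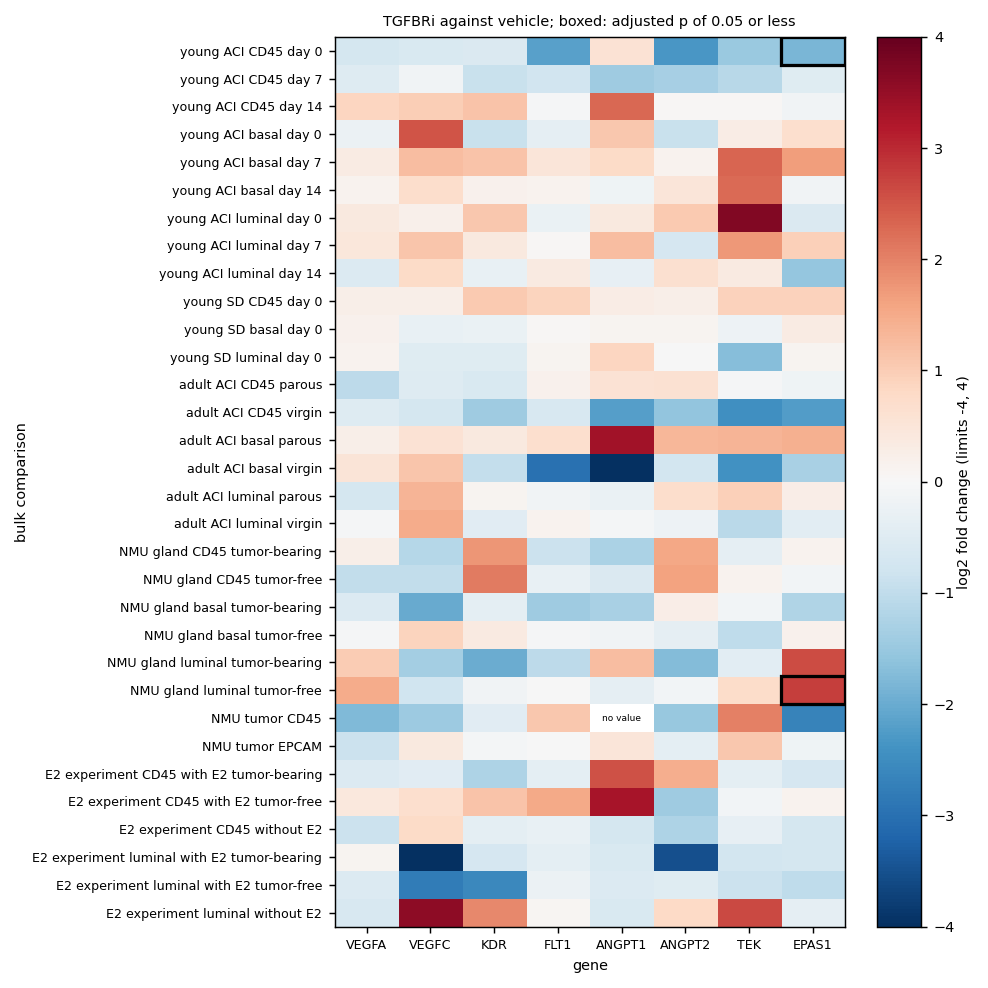
Log2 fold change of TGFBRi against vehicle (color, limits -4 and 4) for 8 members (columns) in 32 bulk settings (rows), with calls boxed. The 2 boxed cells are both EPAS1, lower in CD45+ cells of young ACI rats at day 0 and higher in luminal cells of tumor-free NMU-treated rats.

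Other genes of the same pathways changed beside the members in the unsorted gland, counted over lists chosen with earlier results known. In blood endothelial-like cells, of 11 hypoxia-induced genes tested, 1 rose and 5 fell (median log2 fold change -0.14, against -0.02 over all genes), where 32.1% of all genes passed, 1836 upward and 2367 downward. ADM, a vessel-dilating peptide, fell from 473, 423 and 223 to between 52.9 and 71.2 (-2.87, edgeR adjusted p = 1.11e-06), whereas PDK1, a switch of glucose use, rose (1.22, adjusted p = 0.00338). Over the 16 classes ADM fell in 12 and rose in none, and PDK1 rose in 6 and fell in none. ADM was among the leading genes of the basal NRG1 cluster, which held 3585 vehicle and 75 TGFBRi cells. The part of RNA from those cells in the ADM values of other classes was not tested. Outside the unsorted gland ADM was called higher, in sorted ACI mature luminal-like cells (1.11, edgeR adjusted p = 0.0539) and in bulk basal cells of adult virgin ACI rats (1.22, limma adjusted p = 0.0103). LDHA and SLC2A1, of glucose use, were likewise called lower in classes of the unsorted gland (-0.58 and -1.32 in fibroblast-like cells) and higher in sorted ones (0.83 and 0.87 in ACI basal-like cells).

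HIF1A, the paralog of EPAS1, fell in 7 classes and rose in none, and in blood endothelial-like cells was 525.8, 588 and 235 in vehicle and 216 to 294 in TGFBRi rats (-1.01, edgeR adjusted p = 0.0069). EPAS1 itself rose in 4 classes and fell in 1, and in pericyte-like cells both passed, EPAS1 upward (0.49) and HIF1A downward (-0.85). In the HIF system list, 0 rose and 3 fell of 7 tested in blood endothelial-like cells, and 0 rose and 2 fell of 8 in pericyte-like cells, where 32.1% and 27.1% of all genes passed.

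Of the 4 other angiopoietin system genes tested in blood endothelial-like cells, PTPRB, a phosphatase that restrains TEK, rose (0.64, edgeR adjusted p = 0.00536), where 32.1% of all genes passed. In lymphatic endothelial-like cells, where 16.1% of all genes passed, 3 of 4 rose: TIE1, the TEK partner (0.45), PTPRB (0.57) and ANGPTL2 (1.81), with adjusted p from 0.0331 to 0.0709. Of 6 other VEGF system genes in blood endothelial-like cells, FLT4, the receptor of VEGFC (-0.81), and VEGFB (-0.45) fell and none rose, and of 5 in lymphatic endothelial-like cells VEGFB (-1.01, edgeR adjusted p = 0.00215) and PGF (-2.17, adjusted p = 0.0887) fell and none rose. Of 11 endothelial growth and tip cell genes, ESM1 (-1.76) and CXCR4 (-1.43) fell in blood endothelial-like cells, so that these 2 lists and the angiopoietin list were near or below the share of all genes there, while in lymphatic endothelial-like cells DLL4 (1.47) and APLN (1.8) rose and CXCR4 fell (-2.06) of 8 tested.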

How the data were processed

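Bulk values were deposited as a normalized signal: per the labels and the study's methods, the authors aligned reads to rn6 with STAR 2.5.1b, counted them per gene with HTSeq and divided the counts by DESeq2 1.30.1 size factors, separately per table. Genes that overlap on opposite strands cannot be told apart where counting ignored strand. All 2526550 values above 0 came out as whole reads (tolerance 0.001). Single-cell tables were deposited as raw counts (UMIs), made by the authors with Cell Ranger 4.0.0 or 7.0.0 and filtered in Seurat 4.0.0 or 4.1.1.

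Levels across separately scaled tables are CPM. Bulk tests used limma 3.58.1 (trend, robust) on log2(value + 1), keeping genes whose values summed to 10 or more, all groups of a sort in 1 model (a count test had been planned for raw counts), with edgeR 4.0.16 and DESeq2 1.42.0 on recovered reads as alternatives. Cells were scaled to 10000, clustered in scanpy 1.11.5 (2000 variable genes, 30 components, 20 neighbors, Leiden 0.8, alternative 1.2) and summed per rat and class (at least 10 cells, 2 rats per arm and 10 UMIs). The 6% of cells with the highest doublet scores were removed as an alternative. Scripts were tested on simulated data. Members and lists were chosen with earlier results of these data known. The named genes are the 8 members, pathway list genes that passed, and the 3 genes most like each member. The 4 part files of 1 E2 rat were averaged. A CD45+ sample titled day 9 was used as day 7, and 1 described as treated but titled and labelled control was used as vehicle. P-values measure the spread between rats as labelled, and intervals for counting error were not added. Basal and luminal sorts came from the same rats, and their deviations from group means correlated at a median of 0.524 in ACI (18 pairs, 16 over 0.1) and 0.162 in SD rats (8 pairs, 6 over 0.1).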

Additional observations from a re-analysis of the deposited data

Results flagged for a closer look

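In groups of 4 to 10 rats, a sample was set apart where its gap to the nearest other exceeded Dixon's 95% critical value, which chance does in about 1 in 20 groups. This held in 29 of 163 bulk and 45 single-cell groups, 12 of them from 1 adult virgin ACI vehicle rat, and no explanation was tested.

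That rat was highest in basal cells for KDR (1617), FLT1 (5028), ANGPT1 (173.7), ANGPT2 (1491), TEK (813) and EPAS1 (7600.2), in luminal cells for KDR (786), FLT1 (4084) and ANGPT2 (609), and in CD45+ cells for KDR (857), FLT1 (2829) and ANGPT2 (1179.9). Another adult virgin vehicle rat was highest for VEGFC (197) in CD45+ cells. In virgin TGFBRi rats 1 basal sample was highest for KDR (215) and 1 for EPAS1 (3494). In parous rats, single samples stood apart for KDR (178) and ANGPT2 (160.5) in luminal cells of vehicle rats and for VEGFA (12640.0), VEGFC (99.5) and TEK (536) in CD45+ cells of TGFBRi rats.

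Elsewhere in bulk, single samples stood apart for ANGPT1 (731), ANGPT2 (427) and TEK (339.6) in luminal cells of tumor-free E2 TGFBRi rats, for FLT1 (1511) in CD45+ cells and for ANGPT1 (48.9) in basal cells of young SD TGFBRi rats. In whole-gland classes of TGFBRi rats, in CPM of UMIs, they did so for EPAS1 in luminal progenitor-like cells (88.9), for VEGFA in NK-like cells (61) and for VEGFA (766) and VEGFC (125) in the CCL19 cluster.

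Groups differed in 5 effects, the first of them untested. In bulk, ANGPT1 was lower in basal than in luminal cells of all 3 ACI rats (-3.29) and higher in all 4 SD rats. In sorted single cells of both strains, luminal progenitor-like cells held more of it than basal-like cells. The other 4 differences were chosen after their values were seen and used exact permutation tests over rats. Their p-values are adjusted over these 4 tests only, which does not cover that choice. The TGFBRi effect on ANGPT2 in pericyte-like minus lymphatic endothelial-like cells was 1.9 on the log2 scale (exact permutation p = 0.0119, the smallest of 84 arrangements, adjusted p = 0.0159). In luminal progenitor-like cells, unsorted minus sorted SD, the effects differed by 1.86 for EPAS1 (exact permutation p = 0.000142, the smallest of 7056 arrangements, adjusted p = 0.000567) and 2.12 for ANGPT1 (exact permutation p = 0.0034, adjusted p = 0.0068). Unsorted SD minus sorted ACI, they differed by -0.58 for FLT1 (exact permutation p = 0.0173, adjusted p = 0.0173). These effects are on log2 levels without TMM, and after TMM the folds of FLT1, -0.64 and 0.44, lay further apart, while those of EPAS1 (0.74 and -0.62), ANGPT1 (1.76 and 0.04) and ANGPT2 (0.76 and -0.99) lay closer together.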

How the results depend on the processing

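Of 45 member calls, 20 held under all alternatives run, among them every basal against luminal call except ANGPT1 in SD rats, and 11 of 33 single-cell calls. Member calls in young ACI rats went from 1 to 2 with a pseudocount of 5 or no filter (0 to 2 leaving out single samples). DESeq2 called 1 for day differences (0 otherwise, 0 to 2), 1 in adult ACI rats (0, 0 to 2), 4 in NMU glands (1, 0 with edgeR, 0 to 3) and 2 in the E2 experiment (0, 0 to 1). Sorted SD calls went from 2 to 1 without a filter and to 8 without TMM (0 to 6). The lymphatic share difference of -0.329 points ranged from -0.438 to -0.187. Without doublets 6 of 8 members kept their highest named class over all rats. ANGPT2 was then highest in blood endothelial-like cells and VEGFA in the basal NRG1 cluster. That cluster then had enough cells in 3 vehicle rats and 1 TGFBRi rat, so its mean is mostly one of vehicle rats. With both basal clusters summed, EPAS1 (0.57) and KDR (0.40) turned positive. With rat as a replicate block, basal against luminal calls went from 10 to 11, VEGFC in SD rats being gained and none lost. The causes were not tested. The NRG1 cluster could not be fitted without doublets. KDR, TEK and ANGPT2 were low in sorted epithelium, where most classes held under 1 CPM, and the part of depth was not tested.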
